A study of Mus musculus with 2 samples.

Results

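In order to examine how the receptors for noradrenaline changed during brown adipogenesis, 8 adrenergic receptor genes were taken by symbol from the deposited expression table, in which 23361 genes held values. They were the beta receptor genes Adrb1 and Adrb3, the alpha 1 receptor genes Adra1a, Adra1b and Adra1d, and the alpha 2 receptor genes Adra2a, Adra2b and Adra2c. All 8 were in the table, and each was a single row. Another beta receptor gene was not analysed here, so shares below are shares of these 8 genes. RNA-Seq was performed on 1 library of brown preadipocytes (D0) and 1 library of brown adipocytes after differentiation (D7). The cells of both were taken from interscapular brown fat of C57BL/6 newborns (C57BL/6J in the study's methods). Per the labels, both were grown with 20% fetal bovine serum, then plated 4 days before induction with 10% serum, 1 nM T3, the active thyroid hormone, and insulin at 0.1 μM. The D7 cells then received 0.5 mM IBMX, which blocks cAMP breakdown, 2 μg/ml dexamethasone, a synthetic glucocorticoid, and 0.125 mM indomethacin for 2 days, followed by insulin and T3 alone until day 7. The labels call the cells primary cultures, whereas the study's methods describe immortalization with large T antigen and other insulin and dexamethasone concentrations. Whether cells of several pups were pooled in a culture is not given in the sources used here.

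Adrenergic receptors are membrane receptors that bind noradrenaline, the transmitter of the sympathetic nerves that reach brown fat, and adrenaline from the blood. Beta receptors act through the stimulatory G protein Gs, which switches on adenylyl cyclase and raises cAMP, and in brown fat this starts lipolysis and heat production. Alpha 2 receptors act through Gi, which lowers cAMP, while alpha 1 receptors act through Gq and phospholipase C, which releases calcium from internal stores.

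The values were FPKM, fragments per 1000 bases of transcript and per 1000000 reads, as the authors deposited them, so levels of different genes are given per length. Fragment numbers were worked out from the steps between low values of single-exon genes, which gave a total of 21471824 fragments for D0 and of 18266002 for D7. Of the 14 member values above 0, 11 lay within 0.05 of a whole number of fragments. The other values, those of Adra1a and Adra1d, have approximate numbers. With 1 library per stage there was no replicate check and no p-value, and "rose" and "fell" stand for a difference of at least 2.0-fold between the libraries. The 95% intervals cover counting error only, and a count of 0 or a low count was read against a limit of 3 fragments. In RNA from a whole culture, more cells of a type and more RNA per cell cannot be told apart.

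The receptor profile of the 2 libraries was led by different genes. At D0, the summed FPKM of the 8 genes was 12.4, of which Adra1d held 66.6%, Adra2a 27.8% and Adra1b 4.31%. At D7, the sum was 74.5, of which Adrb3 held 80.1%, Adra1d 11.1% and Adra1b 5.49%. Both beta receptor genes together held 1.16% at D0 and 81.0% at D7. The alpha 1 genes held 70.9% and 18.1%, and the alpha 2 genes 27.9% and 0.936%. In FPKM, the beta sum was 417 times as high at D7, the alpha 1 sum was 1.53 times as high, and the alpha 2 sum was 4.98-fold lower. FPKM reached 1 in 2 of the 8 genes at D0 and in 4 at D7. Among all genes with values, 61.0% lay below Adra2a, the lower of the 2 at D0, at 3.46 FPKM. At D7, 51.0% lay below Adra1a, the lowest of the 4, at 1.10 FPKM, so a level of 1 was common among all genes.

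**Figure D1:**
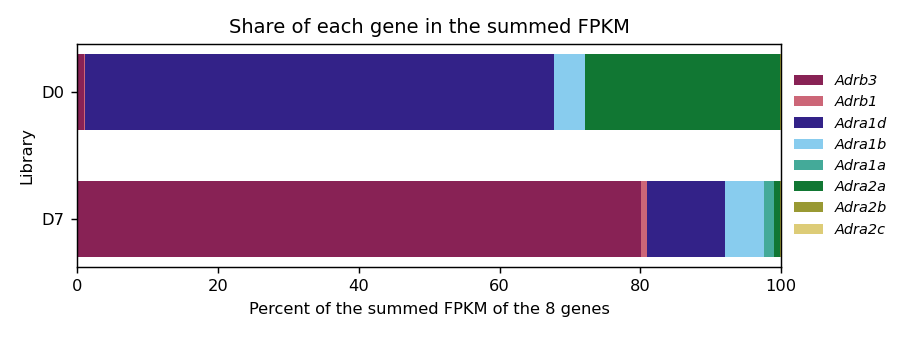
Bars give the percent of the summed FPKM of the 8 receptor genes held by each gene in the D0 and the D7 library. Adra1d and Adra2a fill most of the D0 bar with 66.6% and 27.8%, and Adrb3 fills 80.1% of the D7 bar.

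Of the 6 receptor genes above 0 in both libraries, 4 were at least 2.0-fold higher at D7 (Adrb3, Adrb1, Adra1b and Adra2b), where 18.5% of the 14986 genes above 0 in both libraries were. Adra2a was at least 2.0-fold lower, as were 13.2% of those genes, and Adra1d lay between these thresholds. Adra1a and Adra2c were listed at 0 at D0 and above 0 at D7, as were 4.33% of the 23361 genes with values. The call of Adra2b rested on 1 and 3 fragments, and its interval included 1.

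**Figure D2:**
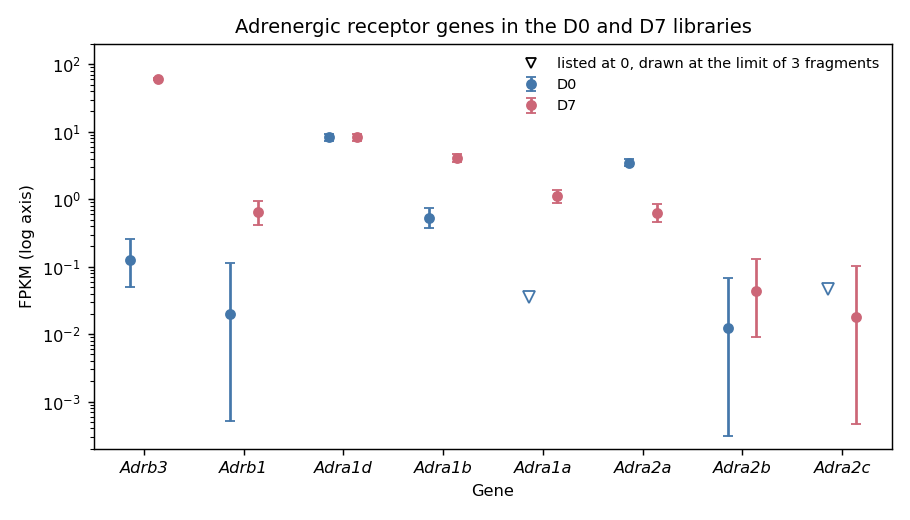
Points give the FPKM of each receptor gene (log axis) in the D0 library (blue) and the D7 library (red), with exact 95% Poisson intervals from the fragment numbers; open triangles mark genes listed at 0, drawn at the limit of 3 fragments. Adrb3 lies at 59.7 at D7 and at 0.125 at D0, while both Adra1d points lie near 8.

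Among the beta receptor genes, Adrb3 showed the largest ratio of the 8 genes. Adrb3 encodes the beta 3 receptor, which in rodents is found mainly on adipocytes. Its FPKM was 0.125 at D0 (95% interval 0.0501 to 0.257), from 7 fragments, and 59.7 at D7 (57.5 to 61.9), from 2849 fragments. The D7 library was thus high and the D0 library close to the limit of 0.0534. The ratio of D7 to D0 was 479 (95% interval 232 to 1192), a log2 ratio of 8.90, and it ranked 30 among the 14986 ratios. At D7, 93.8% of all genes with values had a lower FPKM than Adrb3, compared with 42.0% at D0. Adrb3 (ENSMUSG00000031489.15) lies on the minus strand of mouse chromosome 8 of mm10 (GRCm38) from 27225776 to 27250616 in the GENCODE M21 annotation. Exons of Gm45470 on the opposite strand overlap 19.5% of its deposited transcript, which is 2795 bases long. The library protocol removed the second cDNA strand, but whether strand was used in counting is not given in the sources used here.

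Adrb1 encodes the beta 1 receptor, best known from the heart and also expressed in brown fat. Its FPKM was 0.0201 at D0, from a single fragment, and 0.640 at D7 (0.422 to 0.931), from 27 fragments. The D7 value was above the D0 limit of 0.0604, with a ratio of 31.8 whose interval runs from 5.24 to 1301 because of the 1 fragment at D0. At D7, the FPKM of Adrb3 was 93.2 times that of Adrb1. Adrb1 (ENSMUSG00000035283.5) lies on the plus strand of chromosome 19 from 56722199 to 56733113, and the deposited transcript is a single exon of 2491 bases. The longest run of bases shared by any 2 of the 8 receptor transcripts was 30, between Adrb1 and Adrb3, shorter than the reads. Only exact runs were counted, while the study's alignment accepted mismatches, so placement of reads on a wrong gene was not tested.

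The alpha 1 receptor genes, whose products couple to Gq, differed from each other. Adra1d measured 8.28 FPKM at D0 (7.38 to 9.27), from about 306 fragments, and 8.27 FPKM at D7 (7.28 to 9.33), from about 259. The libraries did not stand apart in Adra1d, whose ratio was 0.998 with an interval from 0.841 to 1.18. Adra1d was the highest of the 8 genes at D0 and the second at D7. Adra1d (ENSMUSG00000027335.9) lies on the minus strand of chromosome 2 from 131545850 to 131562283. The deposited locus of Adra1d is shared by 13 rows of the table, and an exon of Gm14285 on the opposite strand overlaps 7.74% of its transcript.

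Adra1b measured 0.536 FPKM at D0 (0.369 to 0.753), from 33 fragments, and 4.09 FPKM at D7 (3.56 to 4.68), from 214 fragments. The intervals of the levels did not overlap, and Adra1b rose with a ratio of 7.63 (5.27 to 11.4). Adra1b (ENSMUSG00000050541.14) lies on the minus strand of chromosome 11 from 43774606 to 43901210. Adra1a was listed at 0 at D0, where 3 fragments would be an FPKM of 0.0353, and reached 1.10 FPKM at D7 (0.866 to 1.36), from about 79 fragments. Its value was therefore at least 31.1-fold higher at D7, or at least 17.0-fold with the shortest of its 5 annotated coding transcripts as the length. Adra1a (ENSMUSG00000045875.13) lies on the plus strand of chromosome 14 from 66635251 to 66771168.

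The alpha 2 receptor genes, whose products couple to Gi, were led by Adra2a, which fell. Adra2a measured 3.46 FPKM at D0 (3.06 to 3.90), from 269 fragments, and 0.635 FPKM at D7 (0.458 to 0.859), from 42 fragments. The D0 library was high and the D7 library low, with intervals that did not overlap. The ratio was 0.184 (0.129 to 0.255), a 5.44-fold lower value at D7, and it ranked 338 from the lowest of the 14986 ratios. Adra2a (ENSMUSG00000033717.6) lies on the plus strand of chromosome 19 from 54044151 to 54048982.

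Adra2b and Adra2c were at or below the limit of 3 fragments in both libraries. Adra2b measured 0.0124 FPKM at D0, from 1 fragment, and 0.0437 FPKM at D7, from 3 fragments. Its ratio of 3.53 has an interval from 0.283 to 185, so no change was detectable at this depth. Adra2c was at 0 at D0 and held 1 fragment at D7, or 0.0182 FPKM, so no ratio is given. Adra2b (ENSMUSG00000058620.5) lies on chromosome 2 from 127363208 to 127367221 and Adra2c (ENSMUSG00000045318.6) on chromosome 5 from 35278319 to 35281763, both on the plus strand.

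**Figure D3:**
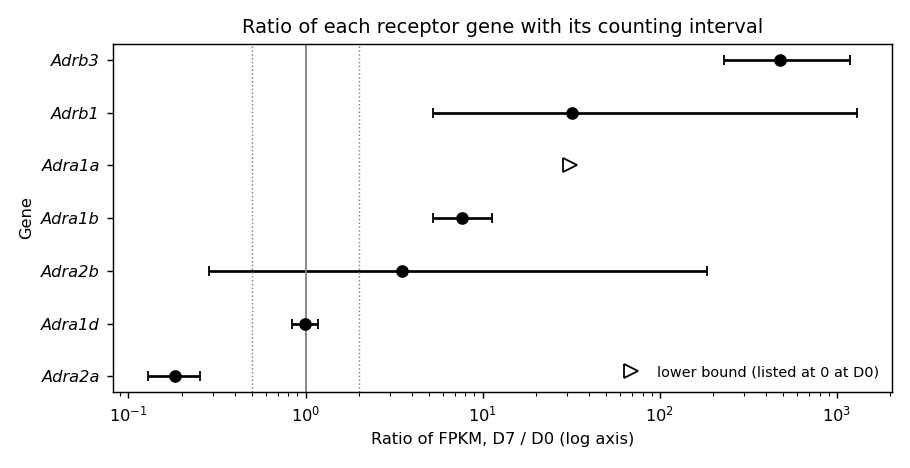
Points give the ratio of FPKM at D7 to D0 (log axis) for each receptor gene with its exact 95% counting interval; dotted lines mark 0.5 and 2.0, and the open triangle is the lower bound for Adra1a, which was listed at 0 at D0; Adra2c has no ratio. The intervals of Adrb3, Adrb1 and Adra1b lie above 2.0, that of Adra2a lies below 0.5, and those of Adra1d and Adra2b include 1.

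The order of levels within each library was compared by the ratio of neighbours. At D0, Adra1d was 2.40 times as high as Adra2a (2.03 to 2.83), Adra2a was 6.45 times as high as Adra1b (4.49 to 9.57), and Adra1b was 4.30 times as high as Adrb3 (1.87 to 11.5). Below them, Adrb3 and Adrb1 could not be ordered by their fragments, since the interval of their ratio ran from 0.795 to 279, and neither could Adrb1 and Adra2b. At D7, Adrb3 was 7.22 times as high as Adra1d (6.36 to 8.24), followed by Adra1b, Adra1a and Adrb1, and each step had an interval above 1. Adrb1 and Adra2a were next to each other at D7 with a ratio of 1.01 (0.597 to 1.67). Adra2b and Adra2c were lowest, and the interval of their ratio ran from 0.194 to 127.

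**Figure D4:**
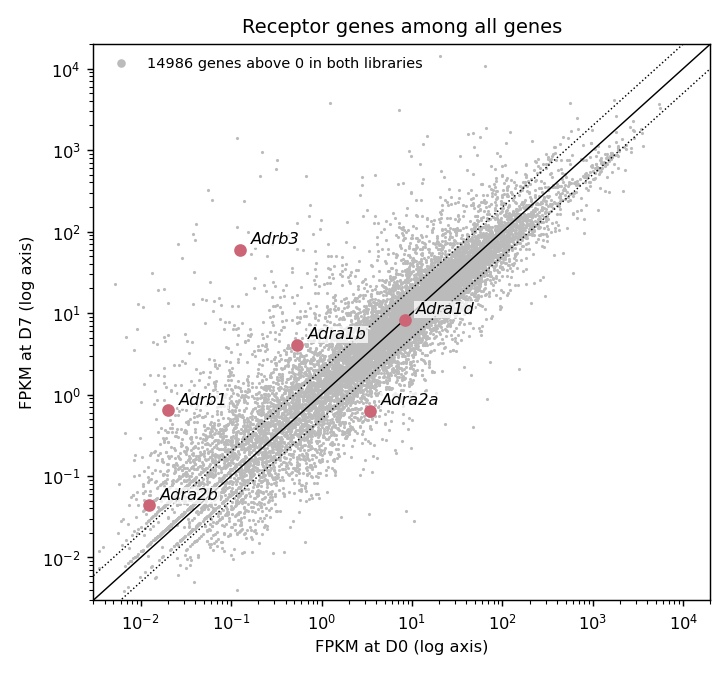
Grey points give the FPKM at D0 and at D7 (log axes) of the 14986 genes above 0 in both libraries, red points the 6 receptor genes among them; the solid line marks equal values and dotted lines 2.0-fold differences. Adrb3 lies far above the cloud, Adra1d on the line and Adra2a below it.

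Promoter sequence was at hand for 5 of the 8 genes in the RefSeq table (GRCm38.p6): Adrb1, Adra1b, Adra2a, Adra2b and Adra2c. The windows upstream of Adrb1 and of the Adra1b start nearest to its deposited transcript are shown because both genes rose. Each gives the 250 bases before the start site, chr19:56721867-56722116 on the plus strand for Adrb1 and chr11:43836490-43836739 on the minus strand for Adra1b. Capitals mark the Sp1 box (GGGCGG on either strand) and TGACG, the core of the cAMP response element.
Adrb1: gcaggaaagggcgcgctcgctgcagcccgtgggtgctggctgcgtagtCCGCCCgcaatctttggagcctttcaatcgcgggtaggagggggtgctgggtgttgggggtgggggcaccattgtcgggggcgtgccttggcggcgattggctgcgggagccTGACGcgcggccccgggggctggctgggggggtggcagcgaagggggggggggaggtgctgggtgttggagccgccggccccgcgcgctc
Adra1b: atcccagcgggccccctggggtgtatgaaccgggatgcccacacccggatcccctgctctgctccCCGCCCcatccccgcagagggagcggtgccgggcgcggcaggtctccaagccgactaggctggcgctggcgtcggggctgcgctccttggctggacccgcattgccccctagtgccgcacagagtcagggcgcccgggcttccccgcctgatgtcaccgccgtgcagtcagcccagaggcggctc

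Both windows were rich in G and C, with 74.0% for Adrb1 and 72.8% for Adra1b against a median of 52.4% over 32851 promoter windows. They held 24 and 22 CpG pairs against a median of 6. An Sp1 box was in both, as in 32.7% of all windows. The other Adra1b window, at a start 64905 bases from that of the deposited transcript, differed. It had 41.6% G and C, 3 CpG pairs and no Sp1 box. High G and C was not particular to genes that rose. The window of Adra2a, which fell, had 67.6% G and C, 22 CpG pairs and 1 Sp1 box. That of Adra2b, with no detectable change, had 66% G and C, 23 CpG pairs and 2 Sp1 boxes. The Adra2c window had 53.6% G and C, 6 CpG pairs and no Sp1 box. The core TGACG was in the Adrb1 window, 90 bases before the start, and in the window of Adra2a, which fell. It was in no Adra1b window, and 17.8% of all windows held it. The full element TGACGTCA was in none of the 6 receptor windows and in 1.55% of all windows. These matches describe letters only.

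Among genes that supply or clear noradrenaline, Th and Dbh of its synthesis were listed at 0, as was Pnmt. Ddc, also of its synthesis, fell from 0.917 to 0.401 FPKM, a ratio of 0.437 (0.207 to 0.821). Maob of its breakdown was measured in both libraries. Th, which makes the precursor of dopamine, Dbh, which makes noradrenaline from dopamine, and Pnmt, which makes adrenaline, were listed at 0 in both libraries. Slc6a2, the noradrenaline uptake carrier of nerves, had 1 fragment, at D7. Of the 15 genes of the list, 9 were above 0 in both libraries, of which 3 were at least 2.0-fold higher and 1 lower. Over all genes above 0 in both libraries, 18.5% were higher and 13.2% lower. Of the 3 higher genes, Slc18a1 rested on about 2 and 6 fragments and Slc22a2 on about 1 and 4, and both intervals included 1. Maob, a monoamine oxidase, rose from 8.03 to 18.2, a ratio of 2.27 (2.01 to 2.58). Slc22a3, a carrier that takes up noradrenaline outside nerves, was listed at 0 at D0 and had about 25 fragments at D7, at least 9.82-fold higher. The median log2 ratio was 0.60 in this list and 0.02 over all genes above 0 in both libraries.

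Of the G protein subunits, Gnas, which encodes Gs alpha, was the highest, with 1058 FPKM at D0 against 1024 at D7 (ratio 0.968). Of the 5 stimulatory and Gq subunit genes above 0 in both libraries, 1 was at least 2.0-fold higher and 0 were lower. Among all genes above 0 in both libraries, 18.5% were higher and 13.2% lower. Of the 5 inhibitory subunit genes, Gnai1 rose from 9.46 to 39.1 (ratio 4.14, 3.78 to 4.54) and Gnao1 from 2.37 to 7.34 (ratio 3.09, 2.54 to 3.79). Gnai2, the highest of them, went from 296 to 168 FPKM (ratio 0.568), within 2.0-fold, and the summed FPKM of the 5 genes was 350 at D0 against 252 at D7.

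Receptor kinases phosphorylate active receptors, arrestins then uncouple them, and RGS proteins shorten the signal of G proteins. The list held 17 genes for these proteins and for others that bind or regulate receptors, such as Gipc1. At D7, 5 were at least 2.0-fold higher and 0 were lower, with a median log2 ratio of -0.08. The shares over all genes above 0 in both libraries were 18.5% higher and 13.2% lower. The 5 higher genes were Rgs2, Adrbk2, Arrb1, Rgs5 and Arrdc3. Rgs2, which acts on Gq, rose from 1.66 to 38.8 FPKM (ratio 23.3, interval 19.2 to 28.9). Adrbk2, a beta receptor kinase, rose from 0.0586 to 1.03, a ratio of 17.5 (8.60 to 41.5). Its relative Adrbk1 measured 21.4 FPKM at D0 against 19.7 at D7. Arrb1 (beta arrestin 1) rose from 2.53 to 9.95, a ratio of 3.94 (3.51 to 4.44).

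Effectors of the receptors moved in both directions. Of 9 adenylyl cyclase genes, 4 were at least 2.0-fold higher and 2 lower, with sums of FPKM of 60.9 at D0 and 63.2 at D7. By comparison, 18.5% of all genes above 0 in both libraries were higher and 13.2% lower. Adcy5, Adcy1 and Adcy9 rose, with ratios of 3.52, 3.47 and 2.72, while Adcy4 and Adcy7 fell, with ratios of 0.253 and 0.255. Adcy6, the highest, measured 30.4 FPKM at D0 against 33.0 at D7. Of 7 genes of phospholipase C beta and IP3 receptors, which carry the alpha 1 signal, 2 were higher and 1 lower, against the same shares. Plcb1 rose from 0.650 to 4.14, a ratio of 6.37 (5.12 to 8.04), and Itpr3 fell from 8.23 to 2.06, a ratio of 0.250 (0.221 to 0.281).

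Of 20 genes that cAMP is known to induce or whose products it regulates in fat, 18 were above 0 in both libraries. At D7, 7 of these were at least 2.0-fold higher and 5 lower, where 18.5% and 13.2% of all genes above 0 in both libraries were. The median log2 ratio was 0.37, or 0.79 over 19 genes with values under 3 fragments set to that limit. The 7 higher genes were Plin1, Ppargc1a, Pnpla2, Lipe, Angptl4, Dio2 and Per1. Pnpla2, a triglyceride lipase, rose from 9.19 to 979 FPKM, with a ratio of 107 (97.5 to 117), and Ppargc1a, a coactivator of mitochondrial genes, from 0.0370 to 4.41, a ratio of 119 (50.7 to 368). Plin1, which coats lipid droplets, rose from 0.0554 FPKM, only 2 fragments, to 324. Ucp1, the uncoupling protein of brown fat, was at 0 at D0 and reached 4.57 FPKM at D7, at least 47.6-fold higher. The 5 lower genes were Nr4a1, Nr4a2, Nr4a3, Pde4b and Gadd45g, of which Nr4a1, a nuclear receptor gene, had a ratio of 0.112 (0.0936 to 0.133), its relative Nr4a3 of 0.205 (0.130 to 0.313), and the phosphodiesterase gene Pde4b of 0.283 (0.253 to 0.316). Crem, Fos and Sik1, which cAMP also induces, were within 2.0-fold, with ratios of 1.06, 1.73 and 0.892.

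**Figure D5:**
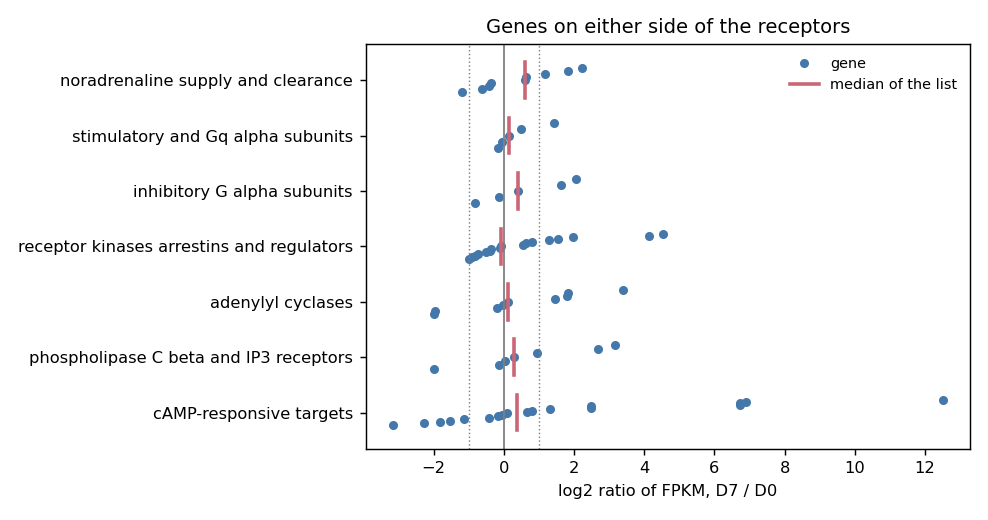
Points give the log2 ratio of FPKM at D7 to D0 of each gene above 0 in both libraries in 7 lists around the receptors, and red lines the median of each list; dotted lines mark 2.0-fold. Medians lie between -0.08 and 0.60, with single genes on both sides.

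Markers of the cell types were read beside the receptor values. Their counts stand beside shares of 18.5% higher and 13.2% lower over all genes above 0 in both libraries. The 5 adipocyte markers had a summed FPKM of 24.4 at D0 and 15795 at D7, and the 5 brown adipocyte markers of 0.417 and 69.7, with Ucp1, Cidea and Elovl3 at 0 at D0. Markers of the label of differentiated brown adipocytes were thus higher at D7. Most of the brown sum at D7 came from Elovl3 (34.2 FPKM) and Cidea (24.4), while Ucp1 (4.57), Ppargc1a (4.41) and Dio2 (2.11) were lower. How far the culture was brown was not tested. Of the 8 markers of smooth muscle and pericytes, 5 were at least 2.0-fold lower and 1 higher, with sums of 4128 and 723, and Acta2 at an FPKM of 2164 and 319. Of the 6 macrophage markers, 5 were at least 2.0-fold higher, with sums of 133 and 407. Of the 5 endothelial markers, 2 were higher and 1 lower, with sums of 0.995 and 2.32 and Tie1 at 0 in both libraries. Of the 5 markers of sympathetic neurons, Th and Dbh were at 0 in both libraries, and the sums were 0.176 and 0.251. All 4 Schwann cell markers were higher, with sums of 3.95 and 9.82. The summed level of the smooth muscle and pericyte markers was thus lower at D7, as was Adra2a, although Rgs5 was higher and Myh11 and Des were within 2.0-fold. The summed levels of the adipocyte, macrophage and Schwann cell markers were higher, as were Adrb3, Adrb1, Adra1a and Adra1b, with the macrophage marker Cd14 within 2.0-fold. The part of these cells in the receptor values was not tested.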

How the data were processed

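RNA-Seq of 1 library at D0 and 1 at D7 was used. The authors filtered the reads, removed duplicate and rRNA reads, and mapped the rest to mm10 and gene sequences with SOAP2 (the submitters' processing notes name Bowtie2), and deposited an FPKM for each gene in each library. Of 27324 rows, 3963 held no value and were left out. All deposited value columns were matched to a library.

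Ratios (D7 over D0) used the deposited FPKM with no pseudocount, for genes above 0 in both libraries, with the study's threshold of 2.0-fold. Fragment numbers were recovered from 603 single-exon genes (minimum 600 bp) with table and annotation ends no more than 500 bp apart. With 179 bp (D0) and 182 bp (D7) taken from each length, 100% of the 81 and 89 values not above 20 fragments came out whole to 0.1, compared with 18.2% and 18.8% after shuffling the lengths. The same FPKM was worth 1.18 times as many fragments at D0 as at D7. Lengths were those of the deposited locus for single-exon receptors and of the deposited accession or longest coding transcript otherwise. Ratio intervals are exact Clopper-Pearson and level intervals exact Poisson intervals at 95%. They compare libraries, not stages.

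All 8 receptors are named. From each list, genes past 2.0-fold with FPKM of at least 1 in a library were named, at most 3 per direction, together with the highest gene, and for Adrb3 the 5 genes nearest in log2 FPKM. Some genes that this rule takes are not reported here. Genes named beyond this rule, such as those listed at 0, Adrbk1 and Gnas, were picked with their values in view. The members and lists were chosen with earlier results of these data known. Some genes are in more than 1 list. Alternatives were floors, pseudocounts, scalings, filters, summed rows and thresholds. On simulated libraries of 15129 genes, all 200 changed genes were recovered for D7 over D0, and 96.5% of intervals held the true fold. The planted folds lay far past the threshold of 2.0-fold. Recovery of all of them was thus to be foreseen and does not bear on ratios near 2.0. The changed genes were drawn from those with more D0 fragments than Adrb3, Adrb1, Adra1a, Adra2b and Adra2c had. Counts were simulated with counting error alone, so low counts and variation between cultures were not covered. Scripts ran in Python 3.11.15 with scipy 1.17.1, pandas 2.3.3, numpy 2.4.6 and, for plots, matplotlib 3.10.9.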

Additional observations from a re-analysis of the deposited data

How the results depend on the processing

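The direction of Adrb3, Adrb1, Adra1b, Adra2b and Adra2a was the same under all alternatives that gave a ratio. This outcome was fixed beforehand. Floors, pseudocounts, filters and summed rows could not reverse a direction. Scalings moved the median log2 ratio by -0.35 at the largest, while the smallest log2 ratio in size of these genes was 1.82, for Adra2b. It does not bear on the few fragments of Adra2b. The count of receptor genes at least 2.0-fold lower was 1 under all 13 alternatives. The count of higher genes was between 3 and 5 under the alternatives, except for 2 with only genes of FPKM at least 1 in a library, which leaves out Adrb1 and Adra2b. With a pseudocount of 1, the ratio was 1.61 for Adrb1, 1.03 for Adra2b and 54.0 for Adrb3, and with a pseudocount of 0.1 it was 1.28 for Adra2b. Setting FPKM under 0.01 to 0.01 and dividing each library by its median moved the median log2 ratio of all genes by -0.35. The ratio of Adra1d was then 0.782, outside its counting interval, and that of Adra2a was 0.144. Depth limits Adra2b, Adra2c and the D0 values of Adrb1 and Adrb3, which rest on at most 7 fragments. No paired analysis was possible because each stage has 1 library.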

Other observations

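Receptors for other amines were mostly at or near 0. Among all 23361 genes with values, 6690 were listed at 0 in both libraries. Of 27 genes for dopamine, serotonin, histamine, acetylcholine and trace amine receptors, 14 were listed at 0 in both libraries and 10 were above 0 in both. Of those 10, 4 were at least 2.0-fold higher at D7 and 3 lower, against 18.5% and 13.2% of all genes above 0 in both. Htr6, among the higher genes, rested on 2 and 4 fragments and its interval included 1. FPKM reached 1 only in the serotonin receptor genes Htr1b and Htr2a. Htr1b fell from 7.35 to 0.839 FPKM (ratio 0.114, 95% interval 0.0660 to 0.191) and Htr2a from 7.09 to 1.94 (ratio 0.274, interval 0.234 to 0.322). The median log2 ratio of the list was 0.23, but -0.86 with values under 3 fragments set to that limit, so its sign depends on the lowest values. Their summed FPKM with the other genes of the list was 15.6 at D0 and 5.29 at D7.

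Of 18 genes for other receptors, mostly for hormones, that raise cAMP, 13 were above 0 in both libraries. Of these, 5 were at least 2.0-fold higher at D7 and 3 lower, against 18.5% and 13.2% of all genes above 0 in both. Ptger2, among the higher genes, rested on 1 and 6 fragments and its interval included 1. Of the melanocortin receptor genes, Mc4r was listed at 0 in both libraries. Mc5r was among the 5 higher genes and rose from 0.0474 FPKM, about 4 fragments, to 14.9, with a ratio of 314 (116 to 1092), and Mc2r, the receptor for ACTH, was at 0 at D0 and reached 9.60 FPKM at D7, at least 99.8-fold higher. Tshr, the receptor for thyrotropin, rose from 0.225 to 4.89, a ratio of 21.8 (13.8 to 36.0), and Sctr, the secretin receptor, had 1 fragment at D0 and about 78 at D7. Adora2b, an adenosine receptor, fell from 10.3 to 1.02, a ratio of 0.0989 (0.0663 to 0.143), and Ptgir, the prostacyclin receptor, from 3.91 to 1.34. At D7, the FPKM of Mc5r was the highest of this list and below that of Adrb3.

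Among the 5 genes nearest to Adrb3 by Euclidean distance of log2 FPKM over the 2 libraries were Ppp1r1a at a distance of 0.46, Enpp2 at 0.55 and Sult1a1 at 0.94. Ppp1r1a, an inhibitor of protein phosphatase 1, went from 0.167 to 52.3 FPKM (ratio 313, interval 123 to 1164). With 2 libraries, this likeness only says that the levels are close.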
